A study of Mus musculus with 192 samples.

Results

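Fatty acid oxidation genes were followed through 9 tissues of wild-type (WT) and Nrf2-knockout (Nrf2-KO) mice that had been flown in space or kept on the ground. The group held 37 of the 54752 genes in the table. They were chosen by their role in breaking down fatty acids, with earlier results of these data known: the regulator Ppara, 6 genes of activation and the carnitine shuttle, 7 acyl-CoA dehydrogenases, 3 genes that pass on the electrons, 5 genes of the later mitochondrial steps, 4 genes for unsaturated chains, 5 peroxisomal genes, 3 acyl-CoA thioesterases and 3 further genes (Echdc1, Hibch and Vnn1). Between 33 and 37 of them had enough reads to be tested in a tissue.

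All mice were C57BL/6J males, labelled as 12 weeks of age. The paper gives about that age for the flight mice before launch, so that their tissues were taken at an older age. GC_WT and GC_KO were ground controls with intact or deleted Nrf2 (gene symbol Nfe2l2), and FL_WT and FL_KO were their counterparts flown to the International Space Station for about a month. The deletion is germline, so it was present in every cell of a KO mouse. Mice were housed singly and had been selected by body weight, intake and the absence of a hepatic shunt. Flight mice were dissected in the United States about 2 days after their return, whereas the ground control was run in Japan later in the same year, so that flight, landing, place and date cannot be told apart. The 9 tissues were temporal bone (TpB), mandible (MdB), spleen (Spl), liver (Liv), epididymal white fat (eWAT), interscapular brown fat (iBAT), kidney (Kid), thymus (Thy) and cerebrum (Cbr), with 6 mice in GC_WT, FL_WT and GC_KO and 5 in FL_KO. Kid had 3 mice in each group, and MdB had 3 but 2 in FL_KO. Flight mouse 04, a KO animal with intestinal bleeding that the study treated as an outlier in many measurements and left out of most comparisons, was left out here.

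The 184 samples held 8007523 to 16308175 counts (median 14474799), with the lowest totals in Thy. In 9 of 9 tissues, all KO mice had less Nfe2l2 RNA than all WT mice, with log2 fold changes between GC_KO and GC_WT from -1.81 to -0.25. In Liv the summed level of 7 hepatocyte markers was 70294 to 96229 transcripts per 1000000 (TPM). The brown fat markers, Ucp1 among them, were detected in iBAT, and the adipocyte markers in eWAT and iBAT. In iBAT, 3 libraries carried skeletal muscle RNA, namely FL_WT mice 06 and 08 and FL_KO mouse 11, and the iBAT counts of the 37 genes and of the gene lists around them are given with and without them.

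Fatty acids are burned in cycles of β-oxidation. A fatty acid is joined to coenzyme A (CoA), carried into the mitochondrion as a carnitine ester, and shortened step by step by a dehydrogenase, a hydratase, a second dehydrogenase and a thiolase, while electrons pass through the electron transfer flavoprotein to the respiratory chain. Peroxisomes shorten very long chains by a parallel route. The nuclear receptor PPARα, encoded by Ppara, switches on most of these genes in liver, heart, kidney and brown fat during fasting, by binding with RXR to a direct repeat of the sequence AGGTCA.

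Promoter sequences were read from a RefSeq table on GRCm38.p6, which held 31 of the 37 genes and 33 of their promoters (250 bases before to 50 bases after the start of the gene). A search on both strands for AGGTCANAGGTCA, the direct repeat with 1 base between its copies, with up to 2 mismatches in its 12 fixed bases, found a match in 4 of the 31 genes (12.9%), against 4.40% of all 27025 genes in the table. The matches were in Acot4 (TGACCTTTGGCCG, reverse strand), Echs1 (AGGTCACGGGTCC), Etfa (TTACCTTTGCCCT, reverse strand) and Slc25a20 (AGGTGAAAGGTCG). With up to 1 mismatch there was none in the 33 promoters, against 0.554% of all promoters. A match is a description of these letters only and not evidence of binding. Acot4 is shown because its RNA was higher after flight in both Liv and iBAT. The sequence gives the 250 bases before its start, 5′ to 3′ on the forward strand (chr12:84038129-84038378), with the match in capitals.
Acot4: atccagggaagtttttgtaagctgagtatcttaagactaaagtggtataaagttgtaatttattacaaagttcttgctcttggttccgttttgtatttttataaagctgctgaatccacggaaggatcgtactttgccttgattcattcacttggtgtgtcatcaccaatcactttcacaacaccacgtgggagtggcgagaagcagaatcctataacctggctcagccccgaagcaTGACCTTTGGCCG

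Hadha and Hadhb, the 2 subunits of the mitochondrial trifunctional protein, are shown because they lie head to head on chromosome 5 and their RNAs fell together in iBAT. Their starts (30154980 on the reverse strand for Hadha and 30155253 on the forward strand for Hadhb) are 273 bases apart. The sequence gives the 250 bases before the start of Hadhb on the forward strand (chr5:30155003-30155252), and capitals mark the 228 bases that also lie in the promoter window of Hadha.
Hadhb: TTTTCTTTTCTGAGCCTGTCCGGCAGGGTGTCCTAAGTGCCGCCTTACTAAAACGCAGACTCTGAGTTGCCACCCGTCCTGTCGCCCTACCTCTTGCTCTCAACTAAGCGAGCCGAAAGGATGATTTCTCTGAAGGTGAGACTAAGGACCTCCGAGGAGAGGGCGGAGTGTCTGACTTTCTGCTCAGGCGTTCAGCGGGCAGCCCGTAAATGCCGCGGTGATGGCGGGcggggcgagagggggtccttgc

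Before flight or knockout, the genes were most abundant in brown fat. In GC_WT mice, TPM summed over the 37 genes averaged 11700 ± 927 for iBAT (SD, n = 6). It was 5835 ± 471 for Liv and 5639 ± 325 for eWAT (n = 6 each) and 4518 ± 261 for Kid (n = 3), and the other 5 tissues lay between 470 in Thy and 1774 in TpB. Thy libraries were made from rRNA-depleted total RNA and the others by poly(A) selection, so that tissue and library method cannot be told apart for Thy. The ranges of Liv (5061 to 6501) and eWAT (5373 to 6190) overlapped, whereas all iBAT mice lay above all of these. Of the 37 genes, 19 were highest in iBAT, whereas Liv was the highest tissue for 8, eWAT for 6 and Kid for 4. The genes of the mitochondrial spiral led in iBAT, where the trifunctional protein subunit Hadhb averaged 1294 ± 128 TPM and the medium-chain dehydrogenase Acadm 1206 ± 101 TPM, followed by Acadvl at 992 TPM, the thiolase Acaa2 at 842 TPM and Acsl1 at 758 TPM. In Liv the peroxisomal thiolase Acaa1b was the most abundant, at 763 ± 123 TPM. It was followed by the long-chain acyl-CoA synthetase Acsl1 (682 TPM), Acaa2 (556 TPM), the peroxisomal enzyme Hsd17b4 (287 TPM) and the flavoprotein subunit Etfb (264 TPM). Acsl1 led in eWAT at 1087 ± 212 TPM, ahead of Hadh at 368 TPM, Acadm at 327 TPM, and Hsd17b4 and Etfb at 304 TPM each. In Kid, Acadm (569 ± 53.3 TPM) and Etfb (427 TPM) stood before Hadh (355 TPM), the peroxisomal bifunctional enzyme Ehhadh (333 TPM) and Acaa1b (279 TPM). None of the 37 genes stayed below 1 TPM in all tissues.

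**Figure D1:**
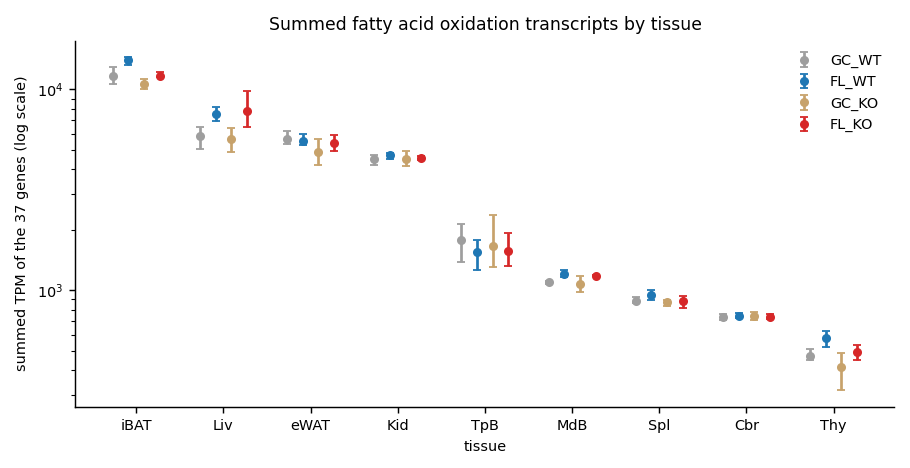
Mean TPM summed over the 37 fatty acid oxidation genes in each tissue and group, on a log axis, with bars from the lowest to the highest mouse. GC_WT means ran from 470 TPM in Thy, whose libraries were made by another method, to 11700 TPM in iBAT.

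Ppara itself followed another order. It averaged 52.2 ± 13.5 TPM in Liv, 24.0 ± 7.82 TPM in iBAT, 11.6 ± 2.34 TPM in Kid, 3.57 ± 1.53 TPM in TpB and 2.50 ± 0.42 TPM in eWAT of GC_WT mice. It was at 0.94 TPM in Cbr and under 0.5 TPM in MdB (0.41), Spl (0.30) and Thy (0.165, with the other library method). No Liv mouse overlapped an iBAT mouse (lowest 39.7, highest 32.7 TPM), while iBAT (from 11.8 TPM) and Kid (up to 13.8 TPM) overlapped, as did TpB and eWAT.

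Flight was compared with ground within each genotype by edgeR's quasi-likelihood test on counts, with Benjamini-Hochberg adjustment over all genes tested in the tissue, and an adjusted p under 0.05 was taken as a call. Levels of single mice are given as counts per 1000000 (CPM) scaled by TMM, the scale of that test, and compare mice but not genes. Over the 9 tissues, 320 pairs of gene and tissue were tested. In WT mice, 24 pairs were called higher and 19 lower after flight, and in KO mice 24 higher and 24 lower. All of these lay in Liv, eWAT, iBAT and Thy. Of the 37 genes, 34 were called in at least 1 of these comparisons, 11 of them only higher, 15 only lower and 8 higher in some and lower in others. In either direction, the share of all genes called in WT and KO mice was 3.45% and 3.34% in Liv and 13.4% and 7.71% in eWAT. It was 19.2% and 33.5% in iBAT and 22.8% and 38.2% in Thy. A gene could be called in any of these, and the tally was not made for all genes. Decr2 and Etfb were called in no comparison of groups, and 66.3% of the 76-base windows of the Etfb transcript (the length of a read) also occur in another gene, Gm45233. In bulk tissue, fewer cells of a type and less RNA per cell cannot be told apart.

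**Figure D2:**
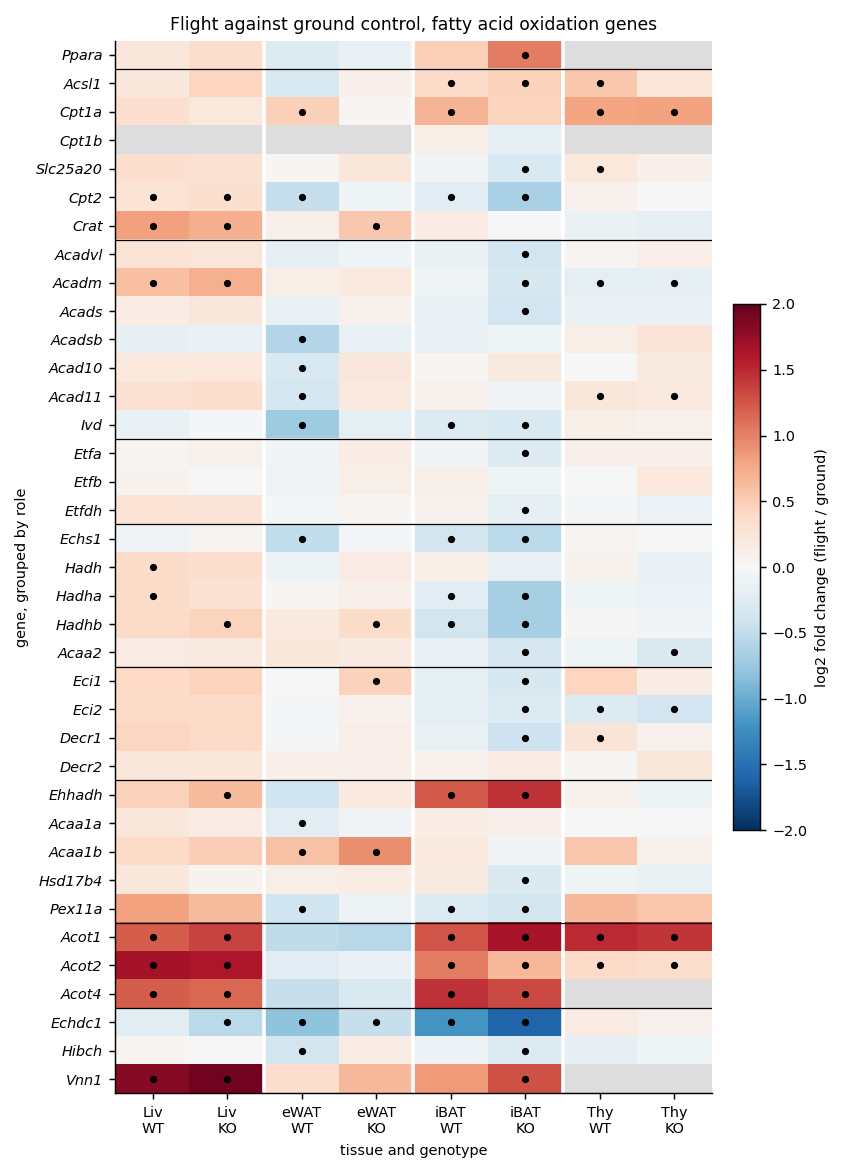
Log2 fold change after flight (colour, limited to 2 in either direction) for the 37 genes, ordered by role, in Liv, eWAT, iBAT and Thy of WT and KO mice. Black dots mark an adjusted p under 0.05 and grey a gene not tested: Liv columns are mostly higher (9 genes in each genotype), while iBAT in KO mice has 19 lower genes beside 7 higher ones.

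In liver, the thioesterases, the carnitine acyltransferases Crat and Cpt2, the medium-chain dehydrogenase Acadm and Vnn1 were higher after flight in both genotypes, by 1.21-fold to 3.82-fold. In WT mice, 9 of 36 tested genes were called higher and none lower, against 1.53% of all genes higher and 1.91% lower. In KO mice, 9 were higher and 1 was lower, against 1.31% and 2.02% of all genes. The same 7 genes (Cpt2, Crat, Acadm, Acot1, Acot2, Acot4 and Vnn1) were higher in both. The median log2 fold change of the 36 genes was 0.29 in WT and 0.31 in KO mice, with 32 and 33 genes above 0, while the median of all genes was 0.00 and 0.01. With mouse numbers as a block, 19 genes were higher in WT mice, including all 9, and 13 were higher and 1 lower in KO mice, including all 10. The same number belongs to different animals in the flight and ground groups. TPM gave 20 higher in WT mice and 25 higher and 1 lower in KO mice, on a scale where the median gene rose by 0.08 and 0.15. With each sample centred on its median gene, a fit added after the data had been seen, 12 were higher and 1 lower in WT mice. In KO mice this fit gave 11 higher and 1 lower. DESeq2 gave 17 higher in WT mice, and with only the compared groups in the fit 15 were higher in WT and 3 in KO mice.

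Ppara did not pass the test in Liv. GC_WT mice had 92.1 to 168 CPM (median 103) and FL_WT mice 99.4 to 171 CPM (median 138), and the log2 fold change (± SE) was 0.23 ± 0.19 (adjusted p = 0.612). In KO mice the log2 fold change was 0.35 ± 0.20 (adjusted p = 0.433), and the groups overlapped in both genotypes.

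Of the shuttle genes, Crat, which moves acetyl groups between CoA and carnitine, had 57.7 to 101 CPM in GC_WT livers (median 69.5) and 113 to 155 CPM in FL_WT livers (median 132). Its log2 fold change was 0.82 ± 0.17 (adjusted p = 0.0105), and the WT groups did not overlap. In KO mice, Crat had 49.7 to 105 CPM on the ground (median 63.3) and 135, 114, 121, 93.9 and 134 CPM in flight mice 01, 02, 09, 11 and 12, so that 1 flight mouse lay within the ground range. The log2 fold change there was 0.72 ± 0.18 (adjusted p = 0.0235). Cpt2, which rebuilds acyl-CoA inside the mitochondrion, rose less, by 0.28 ± 0.07 in WT (adjusted p = 0.0242) and 0.32 ± 0.07 in KO mice (adjusted p = 0.0112). Cpt2 had 148 to 190 CPM in GC_WT and 188 to 213 CPM in FL_WT livers, which overlapped narrowly.

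Acadm opens the breakdown of medium chains. Its level was 245 to 341 CPM in GC_WT (median 283) and 365 to 479 CPM in FL_WT livers (median 451), and 222 to 311 CPM in GC_KO (median 277). The FL_KO mice had 594, 523, 383, 396 and 334 CPM, all above the GC_KO range. The log2 fold changes were 0.60 ± 0.12 (adjusted p = 0.0086) and 0.71 ± 0.13 (adjusted p = 0.00198). Of the 7 acyl-CoA dehydrogenases, no other was called in Liv in either genotype.

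The later mitochondrial steps changed less. Hadha (0.37 ± 0.09, adjusted p = 0.0323) and the 3-hydroxyacyl-CoA dehydrogenase Hadh (0.36 ± 0.10, adjusted p = 0.0383) were called higher in WT livers, where Hadhb had a log2 fold change of 0.39 ± 0.11 and an adjusted p of 0.0507. In KO livers, Hadhb was called (0.45 ± 0.12, adjusted p = 0.0323), while Hadha (0.29, adjusted p = 0.112) and Hadh (0.34, adjusted p = 0.0613) did not pass. The split between genotypes thus turned on values close to the threshold, and the difference between genotypes was not called for any of the 3. The peroxisomal Ehhadh was called in KO mice (0.64 ± 0.14, adjusted p = 0.0118), with 0.47 ± 0.14 and an adjusted p of 0.0564 in WT mice.

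The acyl-CoA thioesterases, which cleave acyl-CoA back to free acid and CoA, showed larger changes, and 3 of 3 were called higher in both genotypes. Acot1, the cytosolic form, had 48.5 to 61.3 CPM in GC_WT (median 57.8) and 82.6 to 157 CPM in FL_WT livers (median 141), a 2.30-fold rise (log2 fold change 1.20 ± 0.23, adjusted p = 0.00682). Acot2, the mitochondrial form, had 4.74 to 10.5 CPM in GC_WT (median 7.02) and 13.03 to 36.9 CPM in FL_WT livers (median 22.8), a 3.18-fold rise (1.67 ± 0.35, adjusted p = 0.0109). Acot4, the peroxisomal form whose upstream sequence is shown above, had 46.6 to 82.3 CPM in GC_WT (median 61.8) and 90.4 to 220 CPM in FL_WT livers (median 149), a 2.32-fold rise (1.21 ± 0.27, adjusted p = 0.0141). None of these WT groups overlapped. In KO mice the rises were 2.56-fold for Acot1 (adjusted p = 0.0019), 3.06-fold for Acot2 (adjusted p = 0.0117) and 2.20-fold for Acot4 (adjusted p = 0.0239). Flight mice 01 and 02 stood highest in all of them, with Acot1 at 218 and 175 CPM against 80.3, 75.5 and 73.5 CPM in mice 09, 11 and 12. For Acot2 they had 57.7 and 28.9 CPM against 14.4, 15.0 and 13.7 CPM, and for Acot4 216 and 113 CPM against 78.7, 66.7 and 61.4 CPM. Part of the sequence of these genes is shared. Of the 76-base windows, 15.4% of those of Acot1, 21.0% of those of Acot2 and 1.68% of those of Acot4 also occur in another gene of the family, so that some reads could be divided between them.

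Vnn1, which splits pantetheine, a product of CoA breakdown, had the largest rise among the 36 genes tested in Liv. It had 17.5 to 51.9 CPM in GC_WT (median 33.9) and 94.3 to 157 CPM in FL_WT livers (median 125), a 3.55-fold rise without overlap (1.83 ± 0.33, adjusted p = 0.00413). GC_KO livers had 10.3 to 38.9 CPM (median 20.1) and the FL_KO livers 135, 137, 45.6, 56.9 and 34.8 CPM, a 3.82-fold rise (1.93 ± 0.35, adjusted p = 0.0021) in which mouse 12 lay within the ground range. Without FL_KO mouse 01 the genes called higher in KO livers fell from 9 to 5, with Acot2, Acot4 and Crat among those no longer called. The single gene called lower in Liv was Echdc1, which removes the side product ethylmalonyl-CoA. It had 52.8 to 73.3 CPM in GC_KO (median 60.4) and 42.4, 40.5, 39.2, 42.8 and 47.3 CPM in FL_KO livers, without overlap (-0.53 ± 0.10, adjusted p = 0.00288), and a log2 fold change of -0.21 in WT mice (adjusted p = 0.235). No hepatocyte marker of 7 was called after flight in either genotype. Of 8 macrophage markers, 3 were lower in WT livers, with sums of 62.1 to 142 TPM in GC_WT and 45.7 to 85.2 TPM in FL_WT mice, and 1 was lower in KO livers (87.3 to 153 TPM and 76.9 to 115 TPM). Of 3 tested erythroid markers, 2 were lower in WT and 1 in KO livers. The part of these cells in the results was not tested.

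**Figure D3:**
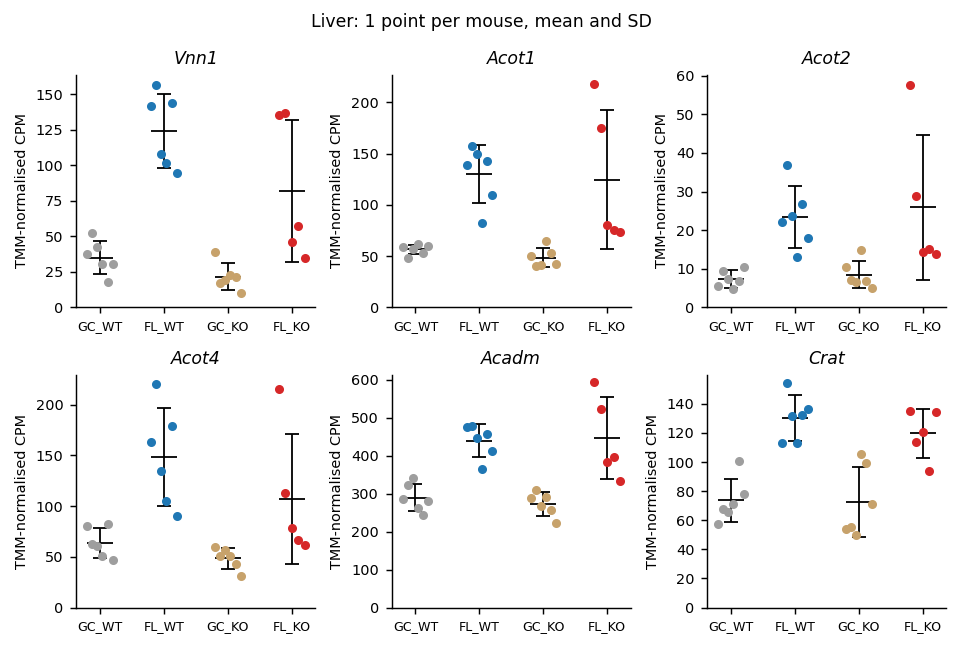
CPM of Vnn1, Acot1, Acot2, Acot4, Acadm and Crat in Liv, one point per mouse, with the mean and SD of each group. FL_WT points lie above all GC_WT points in all 6 panels, and in FL_KO mice the thioesterases, Vnn1 and Acadm spread widely, with mice 01 and 02 highest.

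Around the 37 genes, 72 others of fatty acid handling were followed from a list chosen by function. In Liv, 14 of 65 tested were higher and 3 lower in WT mice, and 15 were higher and 4 lower in KO mice. The hormone Fgf21, a hepatic PPARα target, rose 23.5-fold in WT (4.56 ± 0.46, adjusted p = 4.78e-06) and 8.73-fold in KO mice (3.13 ± 0.42, adjusted p = 0.000211). Ech1, an auxiliary isomerase, rose by 0.67 in both. Acsl4 fell by 0.86 in WT and 0.99 in KO mice, and Acacb, whose product malonyl-CoA blocks entry into the mitochondrion, fell by 0.60 and 0.89. Of 13 citric acid cycle genes, none was called in WT livers and 1 was lower in KO livers.

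In epididymal white fat, 10 of 36 tested genes were lower and 2 higher after flight in WT mice, against 6.78% of all genes lower and 6.65% higher. In KO mice, 4 genes were higher and 1 was lower, against 3.73% and 3.98% of all genes. Of the 7 dehydrogenases, 4 fell in WT mice. The median log2 fold change was -0.12 in WT mice, with 25 genes below 0, and 0.10 in KO mice, with 24 above 0. On TPM, 6 were higher and 7 lower in WT mice, and 6 and 5 without the filter on low values, so that the balance of directions in WT eWAT rested on the scale.

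The genes that fell most in WT eWAT were Echdc1 and branched-chain dehydrogenases. Echdc1 had 130 to 198 CPM in GC_WT (median 143) and 77.8 to 106 CPM in FL_WT eWAT (median 90.03), without overlap (-0.80 ± 0.12, adjusted p = 0.000122). It also fell in KO mice, from 93.2 to 154 CPM (median 138) on the ground to 92.3, 88.5, 101, 101 and 93.6 CPM in flight (-0.46 ± 0.12, adjusted p = 0.0243), although these ranges overlapped and the call was lost without flight mouse 01, 02 or 12. Ivd, which acts in leucine breakdown, had 288 to 390 CPM in GC_WT (median 348) and 141 to 287 CPM in FL_WT eWAT (median 209), a fall of 0.71 ± 0.11 on the log2 scale (adjusted p = 0.00024). Acadsb, which acts in isoleucine breakdown, had 244 to 323 CPM in GC_WT (median 288) and 146 to 241 CPM in FL_WT eWAT (median 189), a fall of 0.59 ± 0.09 (adjusted p = 0.000159). The WT groups did not overlap for either gene. In KO mice neither passed, with log2 fold changes of -0.18 for Ivd (adjusted p = 0.374) and -0.14 for Acadsb (adjusted p = 0.375), but the difference between genotypes was not called for either.

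The other lower genes in WT eWAT changed by smaller amounts. They were the hydratase Echs1 (-0.50 ± 0.10, adjusted p = 0.00249), Cpt2 (-0.46, adjusted p = 0.00849), the peroxisomal thiolase Acaa1a (-0.23, adjusted p = 0.00856) and the dehydrogenases Acad11 (-0.35, adjusted p = 0.0237) and Acad10 (-0.30, adjusted p = 0.0277), together with Hibch of valine breakdown (-0.36, adjusted p = 0.0286) and the peroxisome division factor Pex11a (-0.41, adjusted p = 0.03). The higher genes were Acaa1b and Cpt1a, the gate of mitochondrial entry. Acaa1b had 37.5 to 54.0 CPM in GC_WT (median 49.9) and 52.9 to 97.4 CPM in FL_WT eWAT (median 69.3), a rise to 1.499 times (0.58 ± 0.14, adjusted p = 0.00634). It also rose in KO mice, from 35.3 to 56.0 CPM (median 45.7) to 105, 92.2, 76.3, 81.3 and 77.2 CPM, without overlap (0.93 ± 0.14, adjusted p = 0.00055). Of the windows of Acaa1b, 28.3% also occur in Acaa1a, and the pair moved in opposite directions in WT mice. Cpt1a rose by 0.47 ± 0.15 in WT (adjusted p = 0.0399) and had a log2 fold change of 0.03 in KO eWAT (adjusted p = 0.932).

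Crat and Eci1 were called higher in KO eWAT. Crat had 305 to 445 CPM in GC_KO (median 382) and 574, 591, 567.9, 513 and 488 CPM in FL_KO eWAT, without overlap (0.54 ± 0.10, adjusted p = 0.0029), while WT mice had 377 to 514 CPM on the ground and 396 to 543 CPM in flight (0.10, adjusted p = 0.558). Eci1, an isomerase for unsaturated chains, rose by 0.47 ± 0.10 (adjusted p = 0.00738), and Hadhb by 0.37 ± 0.10 (adjusted p = 0.0229). Ppara had log2 fold changes of -0.27 in WT (adjusted p = 0.202) and -0.14 in KO eWAT (adjusted p = 0.62). Of 8 adipocyte markers, 3 were lower in WT eWAT (sums of 64792 to 81264 TPM in GC_WT and 59419 to 74988 TPM in FL_WT mice), and of 8 macrophage markers 2 were higher (920 to 1265 TPM and 1159 to 2337 TPM). FL_WT mouse 03 had the highest summed macrophage level and B cell level (71.9 TPM, against a group median of 3.85 TPM). Of the 7 genes listed as hepatocyte markers (Alb, Apoa1, Ttr, Fgb, Trf, Apoc3 and Cyp2e1), 2 were lower in WT mice and 1 in KO mice. Their sums were 7725 to 14234 TPM in GC_WT and 3404 to 6298 TPM in FL_WT mice. Which cells of eWAT held this RNA was not tested. Epididymal markers summed to at most 4.55 TPM in all mice except GC_KO mouse 11 (21.5 TPM). The part of adipocytes, macrophages, B cells and epididymal cells in the results was not tested.

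**Figure D4:**
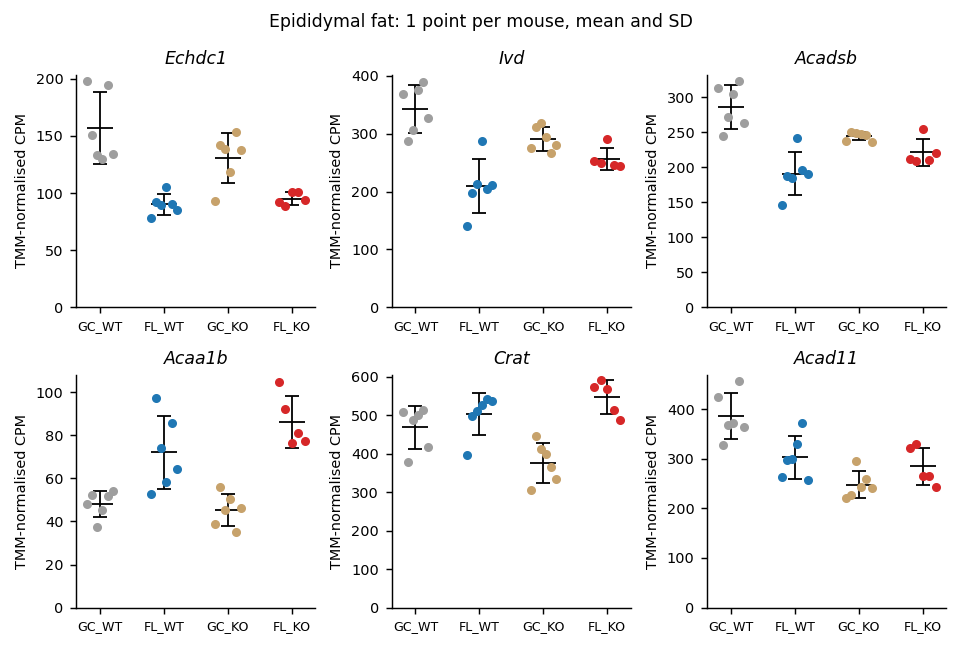
CPM of Echdc1, Ivd, Acadsb, Acaa1b, Crat and Acad11 in eWAT, one point per mouse, with the mean and SD of each group. Echdc1, Ivd and Acadsb of FL_WT mice lie below all GC_WT mice, whereas Acad11 is low in GC_KO mice, at 221 to 296 CPM.

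Of the 72 further genes, 5 of 64 tested were higher and 18 lower in WT eWAT, and 7 were higher and 3 lower in KO eWAT. The regulators made up 10 of the lower genes in WT mice, including Pparg and Ppargc1a. The lipase inhibitor Angptl4 rose by 0.77 in WT and 1.06 in KO mice, and Ech1 by 0.39 and 0.53. Acaca, which makes malonyl-CoA for fatty acid synthesis, fell by 0.997 in WT and 0.924 in KO mice. Of the 13 citric acid cycle genes, 6 were lower and 1 was higher in WT eWAT, and none was called in KO eWAT.

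In interscapular brown fat, genes of the mitochondrial spiral were lower after flight, relative to the median gene, with more of them called in KO mice. The difference between the flight responses of the genotypes was called for none of the 37 genes by edgeR and for 4 by DESeq2. The thioesterases, Acsl1 and Ehhadh were higher in both genotypes. In WT mice, 6 of 37 genes were higher and 7 lower, against 8.83% and 10.3% of all genes. In KO mice, 7 were higher and 19 lower, against 17.0% and 16.6% of all genes, so that the share called higher was near that of all genes. The 5 genes Acsl1, Acot1, Acot2, Acot4 and Ehhadh were higher in both genotypes, and 7 were lower in both (Cpt2, Echs1, Hadha, Hadhb, Echdc1, Ivd and Pex11a). The median log2 fold change was 0.05 in WT and -0.19 in KO mice, with 19 and 12 genes above 0. The median of all genes was 0.02 and 0.04. Without the 3 muscle-rich libraries, 6 were higher and 4 lower in WT mice, and 8 higher and 17 lower in KO mice, with 10 of the 13 and 24 of the 26 calls shared and every called fold change in the same direction.

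The direction of these calls rested on the scale. The 10 most abundant genes took 54.4% of all TPM in GC_WT and 49.3% in FL_WT iBAT, and 56.5% in GC_KO and 49.4% in FL_KO iBAT, and in TPM the median gene rose by 0.31 in WT and 0.43 in KO mice. On TPM without correction, 28 of the genes were called higher and 1 lower in WT mice, and 20 higher and 4 lower in KO mice. Of the called falls, 4 of 7 in WT and 14 of 19 in KO mice lay above 0 on TPM, and 4 of the 14 were called higher there. With each sample centred on its median gene, which was added after the data had been seen, 6 were higher and 10 lower in WT mice and 6 higher and 19 lower in KO mice. The falls were thus relative to the median gene. Summed TPM of the 37 genes was 11700 ± 927 in GC_WT and 14012 ± 451 in FL_WT iBAT (n = 6 each), and 10597 ± 501 in GC_KO (n = 6) and 11699 ± 244 in FL_KO iBAT (n = 5).

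Ppara was called higher in KO iBAT (1.02 ± 0.33, adjusted p = 0.0193), with 21.0 to 94.1 CPM in GC_KO (median 30.2) and 104, 87.0, 75.0, 72.2 and 85.2 CPM in FL_KO mice. The groups overlapped through 1 GC_KO mouse. In WT mice its log2 fold change was 0.47 ± 0.31 (adjusted p = 0.307).

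Among the shuttle genes, Acsl1, which activates long-chain fatty acids, rose by 0.39 ± 0.11 in WT (adjusted p = 0.0142) and 0.46 ± 0.11 in KO mice (adjusted p = 0.00311). Cpt1a, a minor form in this tissue, rose by 0.68 ± 0.21 in WT mice (adjusted p = 0.0251). Cpt2 moved the other way. It had 499 to 555 CPM in GC_WT (median 529) and 376 to 538 CPM in FL_WT iBAT (median 450), and 456 to 557 CPM in GC_KO (median 511) and 335, 306, 348, 326 and 305 CPM in FL_KO iBAT. Its fall was 0.66 ± 0.07 on the log2 scale in KO mice, without overlap (adjusted p = 5.34e-07), and 0.23 ± 0.07 in WT mice (adjusted p = 0.02), where TPM gave a log2 fold change of 0.08.

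The trifunctional protein and the hydratase fell in both genotypes. Hadhb had 2046 to 2354 CPM in GC_WT (median 2147) and 1624 to 1804 CPM in FL_WT iBAT (median 1649), and 2019 to 2419 CPM in GC_KO (median 2287) and 1536, 1430, 1510, 1366 and 1342 CPM in FL_KO iBAT. Neither pair of groups overlapped (-0.36 ± 0.05, adjusted p = 7.91e-05 and -0.66 ± 0.06, adjusted p = 2.71e-08). The promoter window of Hadha overlaps the sequence printed above. Hadha had 2104 to 2499 CPM in GC_WT (median 2250) and 1730 to 2320 CPM in FL_WT iBAT (median 1879). Its log2 fold change of -0.21 ± 0.07 (adjusted p = 0.0374) turned to 0.10 on TPM. In KO mice, Hadha had 2157 to 2672 CPM on the ground (median 2516) and 1688, 1550, 1658, 1466 and 1493 CPM in flight, a fall of 0.66 ± 0.07 without overlap (adjusted p = 8.32e-07). Echs1 fell by 0.37 ± 0.07 in WT (adjusted p = 0.000752) and 0.54 ± 0.07 in KO mice (adjusted p = 1.03e-05).

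In KO iBAT the falls reached most steps of the spiral. Of the 7 dehydrogenases, 4 were lower (Acadvl, Acadm, Acads and Ivd), as were 2 of the 3 electron transfer genes (Etfa and Etfdh), 4 of the 5 later steps, and 3 of the 4 genes for unsaturated chains. Acads, for short chains, fell by 0.38 ± 0.06 (adjusted p = 6.68e-05), the dienoyl reductase Decr1 by 0.41 ± 0.07 (adjusted p = 6.59e-05) and Pex11a by 0.37 ± 0.07 (adjusted p = 0.00034), and these had log2 fold changes of 0.02 to 0.06 on TPM. Over the 14 KO falls that lay above 0 on TPM, the log2 fold changes ran from 0.02 to 0.25. Etfdh (0.25, adjusted p = 0.00266), Etfa (0.17, adjusted p = 0.00751), Eci2 (0.16, adjusted p = 0.0153) and Hibch (0.15, adjusted p = 0.0445) were called higher on TPM by limma, while Acadm (0.12), Ivd (0.12) and Acadvl (0.05) were not. Without the muscle-rich libraries, 4 dehydrogenases, 1 electron transfer gene, 4 of the later steps and 3 genes for unsaturated chains were lower in KO iBAT. In WT iBAT the dehydrogenase Ivd (-0.28 ± 0.07, adjusted p = 0.0101) and Pex11a (-0.27 ± 0.07, adjusted p = 0.00627) were also called lower and had a log2 fold change of 0.04 on TPM.

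Echdc1 showed the largest fall. It had 308 to 385 CPM in GC_WT (median 344) and 134 to 162 CPM in FL_WT iBAT (median 157), and 330 to 480 CPM in GC_KO (median 385) and 129, 106, 152, 140 and 118 CPM in FL_KO iBAT. It fell to 0.435 of the ground level in WT (-1.20 ± 0.09, adjusted p = 4.01e-08) and to 0.329 in KO mice (-1.61 ± 0.10, adjusted p = 4.97e-10), and no mice overlapped in either genotype. Echdc1 was thus lower after flight in both fats of both genotypes and in KO livers.

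The thioesterases rose again. Acot2 had 66.7 to 99.2 CPM in GC_WT (median 83.2) and 134 to 208 CPM in FL_WT iBAT (median 171), a 2.03-fold rise without overlap (1.02 ± 0.13, adjusted p = 8.96e-06), and it rose 1.59-fold in KO mice (0.67 ± 0.13, adjusted p = 0.00046). Acot4 had 10.3 to 13.9 CPM in GC_WT (median 11.9) and 23.0 to 51.8 CPM in FL_WT iBAT (median 29.6), a 2.71-fold rise without overlap (1.44 ± 0.23, adjusted p = 0.000176). In KO iBAT, Acot4 had 6.34 to 11.7 CPM on the ground (median 7.82) and 32.4, 25.0, 22.3, 11.8 and 11.7 CPM in flight (1.33 ± 0.25, adjusted p = 0.000285), where mice 11 and 12 stood at the top of the ground range. Acot1 had 5.87 to 20.2 CPM in GC_WT (median 11.8) and 17.9 to 45.9 CPM in FL_WT iBAT (median 29.8), and it rose by 1.26 ± 0.36 (adjusted p = 0.0167) and by 1.65 ± 0.39 in KO mice (adjusted p = 0.00247).

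The peroxisomal Ehhadh rose with them. It had 67.1 to 190 CPM in GC_WT (median 120) and 168 to 378 CPM in FL_WT iBAT (median 323), a 2.35-fold rise with overlap (1.23 ± 0.31, adjusted p = 0.00689). GC_KO mice had 25.6 to 88.3 CPM (median 52.7) and FL_KO mice 210, 170, 143, 132 and 97.4 CPM, a 2.71-fold rise without overlap (1.44 ± 0.32, adjusted p = 0.00148). Vnn1 rose by 1.27 ± 0.33 in KO iBAT (adjusted p = 0.00492), at 0.86 to 3.05 CPM on the ground and 2.06 to 5.29 CPM in flight. Skeletal muscle markers summed to 8352, 4061 and 10161 TPM in the 3 muscle-rich libraries and to 0.93 to 85.3 TPM in the others, and 9 of 10 were called higher in both genotypes, but none of 9 tested without the 3 libraries. Of 3 tested erythroid markers, 3 were lower in both genotypes, with or without the muscle-rich libraries, with sums of 326 to 619 TPM in GC_WT, 168 to 272 TPM in FL_WT, 262 to 552 TPM in GC_KO and 207 to 314 TPM in FL_KO iBAT. Of 8 macrophage markers, 6 were higher in KO iBAT (3 without the muscle-rich libraries), with sums of 26.4 to 50.4 TPM on the ground and 59.2 to 121 TPM in flight. Of 7 brown fat markers, 3 were lower in WT and 4 in KO iBAT (3 in each without the muscle-rich libraries), while their sums overlapped (6758 to 7910 and 6624 to 9147 TPM in WT, 5611 to 7278 and 5047 to 9010 TPM in KO mice). The part of erythroid cells, macrophages and brown fat cells in the results was not tested.

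**Figure D5:**
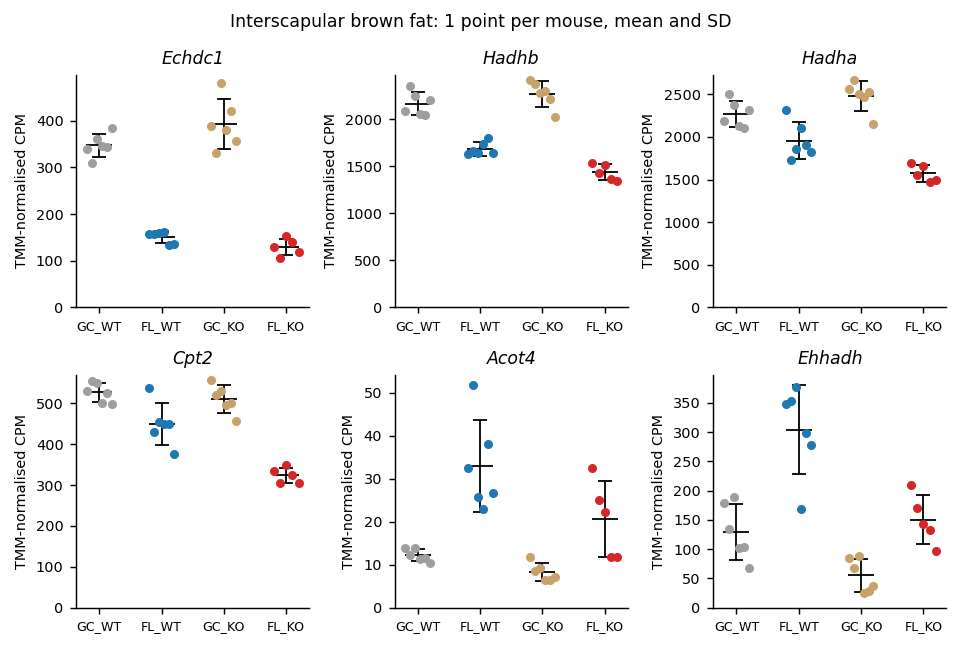
CPM of Echdc1, Hadhb, Hadha, Cpt2, Acot4 and Ehhadh in iBAT, one point per mouse, with the mean and SD of each group. Echdc1 and Hadhb lie lower in all flight mice than in all ground mice of the same genotype, and Cpt2 and Hadha are lowest in FL_KO mice.

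Of the 72 further genes, 9 of 64 tested were higher and 13 lower in WT iBAT, and 13 were higher and 24 lower in KO iBAT. Without the muscle-rich libraries, 7 were higher and 10 lower in WT, and 12 higher and 21 lower in KO iBAT. Acaca fell by 2.26 ± 0.19 in WT (adjusted p = 9.84e-08) and 3.09 ± 0.21 in KO mice (adjusted p = 1.09e-09). Lpin1, a lipid phosphatase and coactivator of PPARα, fell by 0.89 and 1.48, and the complex I assembly factor Acad9, an acyl-CoA dehydrogenase relative, by 0.31 and 0.67. The fatty acid transporter Cd36 rose by 0.48 in WT and 0.39 in KO mice, and the PPAR partner Rxrg by 0.58 and 0.61. Of the 13 citric acid cycle genes, 11 were lower in WT and 13 in KO iBAT (9 and 13 without the muscle-rich libraries).

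In the thymus, whose libraries were made from rRNA-depleted total RNA and whose summed level of these genes was low, 7 of 33 tested genes were higher and 2 lower in WT mice, against 11.8% and 11% of all genes. In KO mice, 4 were higher and 3 lower, against 19.3% and 18.9% of all genes. In either direction, 27.3% of the genes were called in WT mice, against 22.8% of all genes, and 21.2% in KO mice, against 38.2%, so that the shares were near or below those of all genes. Cpt1a, Acot1, Acot2 and Acad11 were higher in both genotypes, and Eci2 and Acadm lower in both. Cpt1a had 90.7 to 133 CPM in GC_WT (median 107) and 136 to 225 CPM in FL_WT thymus (median 196), a 1.74-fold rise without overlap (0.80 ± 0.11, adjusted p = 3.46e-05). In KO mice it had 80.4 to 115 CPM on the ground (median 87.9) and 198, 170, 141, 160 and 146 CPM in flight, a 1.75-fold rise, also without overlap (0.81 ± 0.12, adjusted p = 1.39e-05). Acot1 was scarce, at 1.51 to 2.36 CPM in GC_WT and 2.32 to 6.78 CPM in FL_WT thymus, a 2.82-fold rise (adjusted p = 4.62e-05), and rose 2.68-fold in KO mice (adjusted p = 4.4e-05).

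The other thymic changes were small. In WT mice, Acsl1 (0.54, adjusted p = 0.0153), Acot2 (0.39, adjusted p = 0.0199), Acad11 (0.23, adjusted p = 0.0206), Decr1 (0.26, adjusted p = 0.0345) and Slc25a20, the carnitine carrier (0.21, adjusted p = 0.0474), were higher. The enoyl isomerase Eci2 had 51.9 to 61.9 CPM in GC_WT (median 54.1) and 42.1 to 52.7 CPM in FL_WT thymus (median 44.2), a fall of 0.28 ± 0.06 (adjusted p = 0.00224). It fell by 0.38 ± 0.07 in KO mice (adjusted p = 8.6e-05), without overlap. Acadm fell by 0.19 ± 0.05 (adjusted p = 0.00955) and 0.17 ± 0.05 (adjusted p = 0.0135), but on TPM its log2 fold changes were 0.04 and 0.08. Acaa2 fell by 0.29 ± 0.06 in KO mice, without overlap (adjusted p = 0.000264), and had a log2 fold change of -0.09 in WT mice (adjusted p = 0.196). Without FL_KO mouse 11, the genes called higher in KO thymus went from 4 to 2. On TPM, 17 of the genes were higher in WT and 13 in KO mice, with none lower. Of 7 thymocyte markers, 5 were lower in WT and 6 in KO mice, with sums of 2512 to 2931 TPM in GC_WT, 2103 to 2609 TPM in FL_WT, 1809 to 2794 TPM in GC_KO and 1753 to 1961 TPM in FL_KO thymus. Of 8 macrophage markers, 4 were higher in WT (170 to 233 TPM in GC_WT and 221 to 425 TPM in FL_WT mice) and 7 in KO mice (129 to 189 TPM and 254 to 330 TPM), as were 1 and 3 of 4 B cell markers, and the part of these cells was not tested. Of the 72 further genes, 14 of 58 were higher and 4 lower in WT mice, and 11 were higher and 9 lower in KO mice. Angptl4 rose by 0.90 ± 0.15 in WT (adjusted p = 0.000156) and 0.57 in KO mice, and the PPAR partner Rxra by 0.31 and by 0.45 ± 0.08 (adjusted p = 8.36e-05 in KO mice).

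In TpB, MdB, Spl, Kid and Cbr together, none of 178 pairs of gene and tissue was called after flight in either genotype by edgeR, against 0.472% of all pairs in WT and 0.162% in KO mice. At an unadjusted p under 0.05 there were 38 pairs (21.3%, against 7.77% of all genes) in WT and 23 pairs (12.9%, against 7.30%) in KO mice, and DESeq2 called 5 in WT mice. These 5 were Cpt1a (0.71) and Vnn1 (-1.30) in MdB and Cpt1a (0.54), Acaa2 (0.26) and Acadvl (0.16) in Spl. Of the 38 pairs in WT mice, 15 were in TpB, where 31 of 37 genes lay below 0 with a median log2 fold change of -0.44. There the summed muscle markers ranged from 9362 to 24998 TPM in GC_WT and 4379 to 17764 TPM in FL_WT mice (403 to 32715 TPM over all mice). Brown fat markers ranged from 246 to 653 TPM in GC_WT and 97.7 to 305 TPM in FL_WT mice, and no marker of either list was called. The part of these cells was not tested. In Kid, with 3 mice per group, none of the 37 genes was called, but Cyp4a14, a fatty acid hydroxylase and PPARα target of the further genes, rose 21.5-fold in WT (4.42 ± 0.42, adjusted p = 0.00151) and 7.16-fold in KO mice (2.84 ± 0.38, adjusted p = 0.0169). Ppara was tested in 7 tissues (not in Spl and Thy, where its counts were too low) and was called in no tissue other than iBAT.

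On the ground, the calls between the genotypes lay in white and brown fat, beside Acadvl in Thy. Between GC_KO and GC_WT mice, 9 of 320 pairs were lower and none higher: 5 of 36 in eWAT (against 1.41% of all genes lower), 3 of 37 in iBAT (1.13% lower and 1.02% higher) and Acadvl in Thy (1.13% lower and 2.67% higher). In the other 6 tissues none was called, against 1.04% of all genes in either direction. In 5 of these (TpB, MdB, Spl, Kid and Cbr), 8 of 178 pairs (4.49%) had an unadjusted p under 0.05, against 7.63% of all genes, and in Liv 1 of 36 (2.78%), against 13.4%, so that both shares lay below those of all genes. At an unadjusted p under 0.05, eWAT had 21 of 36 genes (58.3%, against 15.5% of all genes) and iBAT 11 of 37 (29.7%, against 12.7%). Thy had 6 of 33 (18.2%, against 18.8%). In eWAT, 32 of 36 genes lay below 0, with a median log2 fold change of -0.22. Acad11, which handles long hydroxylated chains, had 328 to 457 CPM in GC_WT (median 370) and 221 to 296 CPM in GC_KO eWAT (median 242), without overlap (-0.64 ± 0.10, adjusted p = 0.000571). Hsd17b4 had 433 to 568.2 CPM in GC_WT (median 452) and 297 to 418 CPM in GC_KO eWAT (median 366), also without overlap (-0.37 ± 0.08, adjusted p = 0.015). Hibch (-0.43, adjusted p = 0.033), Cpt2 (-0.44, adjusted p = 0.0345) and Eci1 (-0.38, adjusted p = 0.0354) were lower too. The 5 calls in eWAT became 1 with only the ground groups in the fit, 3 on TPM, 2 on TPM without the filter on low values and 8 by DESeq2, and all 5 log2 fold changes stayed below 0 on TPM. In iBAT, Ehhadh (-1.22 ± 0.31, adjusted p = 0.0371), Ivd (-0.28 ± 0.07, adjusted p = 0.0439) and Acsl1 (-0.40 ± 0.11, adjusted p = 0.0487) were lower. When the 3 muscle-rich libraries, all of flight mice, were left out of the fit, the log2 fold changes stayed at -1.22, -0.28 and -0.40, with adjusted p of 0.0566, 0.0566 and 0.0736. Acadvl was lower by 0.22 ± 0.06 on the log2 scale in Thy (adjusted p = 0.0444), and it was not called with mouse 04 included, in the 3 TPM fits without centring, without the filter on low counts or with only the ground groups in the fit.

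Between the flight groups, the genotypes differed mainly in brown fat. FL_KO iBAT had 13 of 37 genes lower than FL_WT iBAT and none higher, against 1.27% of all genes lower, and 36 of 37 genes lay below 0 (median -0.31). Cpt2 had the smallest p-value (-0.47 ± 0.07, adjusted p = 0.00042), at 376 to 538 CPM in FL_WT and 305 to 348 CPM in FL_KO mice, without overlap. By p-value it was followed by Hsd17b4 (-0.41, adjusted p = 0.00285), Acadm (-0.32, adjusted p = 0.00538), the flavoprotein dehydrogenase Etfdh (-0.33, adjusted p = 0.0111), Decr1 (-0.31, adjusted p = 0.0138), Eci1 (-0.32, adjusted p = 0.0151), Hadha (-0.32, adjusted p = 0.0278) and Acads (-0.26, adjusted p = 0.036). Of the 13, Acot2 had the largest log2 fold change (-0.53, adjusted p = 0.0399), while those of Ehhadh (-1.02), Acot1 (-0.96) and Acot4 (-0.68) were larger and did not pass. The count depended on the libraries in the fit, while all 13 fold changes stayed below 0. With only the flight groups in the fit 1 was called, and the median log2 fold change of the 13 was -0.32 in both fits. Without the 3 muscle-rich libraries 1 of the 13 was called, with a median of -0.31. Without FL_KO mouse 11 alone 5 were called, and without mouse 12 alone 4. TPM also gave 13 lower genes, but only 9 of them were among the 13 called by edgeR. The fit with the muscle level as a covariate gave 14, including all 13. Cpt1b, the muscle-type gate of mitochondrial entry that brown fat also uses, was among the 13, but 92.0% of its windows also occur in the read-through gene Gm44502.

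Elsewhere, 3 pairs were called between FL_KO and FL_WT, and 1 to 4 when 1 FL_KO mouse was left out (1 without mouse 02). The calls of Vnn1 and Acad10 below were each lost without single mice, Vnn1 without any 1 of its 5 and Acad10 without FL_KO mouse 02, 09, 11 or 12. In MdB, Vnn1 was at 2.26, 2.29 and 2.92 CPM in FL_WT and 9.97 and 7.24 CPM in FL_KO mice (1.79 ± 0.31, adjusted p = 0.0467, with 0.0978% of all genes called higher). In eWAT, Acad10 was higher in FL_KO mice (0.40 ± 0.09, adjusted p = 0.0305, with 0.405% of all genes higher and 0.659% lower). In Thy, Acaa2 was lower (-0.29 ± 0.05, adjusted p = 0.00381, with 1.34% of all genes lower and 1.31% higher). In TpB, Spl, Liv, Kid and Cbr none was called by edgeR, against 1.36% of all genes, with an unadjusted p under 0.05 for 2 of 36 genes in Liv (5.56%, against 17.3% of all genes) and 10 of 178 pairs in TpB, MdB, Spl, Kid and Cbr (5.62%, against 7.19%). DESeq2 called 5 pairs in the 8 tissues other than iBAT.

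The difference between the flight responses of the genotypes, tested as an interaction, was called for none of 320 pairs by edgeR, as for 0.0% of all genes in the 9 tissues, and 28 pairs (8.75%, against 4.96% of all genes) had an unadjusted p under 0.05. The smallest p-values were in iBAT, for Hsd17b4 (-0.46 ± 0.10, adjusted p = 0.0844), Hadha (-0.45 ± 0.10, adjusted p = 0.0926) and Cpt2 (-0.42 ± 0.10, adjusted p = 0.0969), each with the lower response in KO mice. DESeq2 called 4 genes in iBAT, namely these and Hadhb, and centred TPM called these 3. In eWAT, 33 of 36 genes had an interaction above 0 (median 0.20, against -0.01 over all genes), that is, a higher response in KO mice, and none was called by edgeR. The interaction restates the genotype differences from the same mice. The median log2 fold change of the 36 genes between KO and WT mice was -0.22 on the ground and -0.01 in flight.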

How the data were processed

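RNA-seq libraries of 9 tissues were prepared by poly(A) selection or, in Thy, from rRNA-depleted total RNA, with a strand-specific kit and single-end reads. The authors aligned reads to mm10 with STAR 2.6.1 and deposited RSEM 1.3.1 expected counts, TPM and FPKM per gene for 192 samples. The 192 FPKM columns were not used. The deposited TPM values served for levels and marker sums and for alternative tests. The deposited expected counts were rounded and tested by edgeR 4.0.16 (R 4.3.3) with the quasi-likelihood test after TMM scaling and filterByExpr, with 4 groups in 1 fit per tissue and Benjamini-Hochberg adjustment over the tissue's genes (called under 0.05). CPM of single mice used the same factors. The 8 samples of flight mouse 04 were left out. Gene identity was taken from the table's symbols.

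The members and all gene and marker lists were chosen with earlier results of these data known. Named were Ppara, the called members by adjusted p (up to 8 per direction in Liv, eWAT and iBAT, up to 5 elsewhere), up to 4 called against the main direction, up to 4 further genes, the 3 smallest p-values of the interaction, and the 5 most abundant members of 4 tissues. Other names complete a list or a count and were added after their values were seen. Results that need an item withheld for evaluation are not reported here.

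As alternatives, the tests were repeated with limma 3.58.1 on log2(TPM + 1), for genes whose mean reached 5 TPM in some group, on log2(TPM + 0.1) and without that filter, with DESeq2 1.42.0, RLE factors, no filter on low counts, mouse 04 included, only the compared groups, blocks, a muscle covariate and leaving out mice. Centred TPM and the fit without muscle-rich iBAT libraries were added after the data were seen. The pipeline was tested on simulated data. Mouse numbers are shared between flight and ground groups but belong to different animals. Same-numbered KO livers deviated together in 5 of 5 pairs (r from 0.202 to 0.338). In WT livers, 3 of 6 pairs had r above 0.1, and r ran from 0.0148 to 0.301 over all 6. No tissue and genotype other than KO livers passed in all pairs. Among ground livers of the genotype, the same-numbered one had the highest r for 2 of 5 FL_KO and 2 of 6 FL_WT mice. Within a tissue, each sample is a separate mouse. Totals of 8007523 to 16308175 counts per sample leave scarce genes such as Acot1 in thymus with few reads.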

Additional observations from a re-analysis of the deposited data

Results flagged for a closer look

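In 9 of 156 sets of 4 to 10 mice, the highest or lowest mouse lay far from the others of its group by Dixon's criterion, which chance alone meets in about 1 set in 20. In iBAT, the summed TPM of the 37 genes was 12129 in FL_KO mouse 09, against 11542 to 11658 in the other FL_KO mice, and Acsl1 was at 3952 CPM in FL_WT mouse 05, against 2915 to 3178 CPM.

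In eWAT, FL_KO mouse 09 had 290 CPM of Ivd (244 to 252 in the others) and 255 CPM of Acadsb (208 to 221), FL_WT mouse 03 had 150 CPM of Cpt1a (109 to 118) and the lowest Crat at 396 CPM (498 to 543), and GC_KO mouse 01 had 141 CPM of Cpt1a (70.3 to 91.6). FL_WT mouse 03 is the mouse with the highest macrophage and B cell markers in eWAT, and the part of these cells was not tested.

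In Thy, GC_WT mouse 06 had 61.9 CPM of Eci2 (51.9 to 55.5) and FL_WT mouse 10 had 59.3 CPM of Acaa2 (50.7 to 53.9).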

How the results depend on the processing

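Counts below are of the 37 genes called, as WT flight against ground, then KO, unless another comparison is named. In Liv, genes called higher were 9 in WT mice by edgeR, 17 by DESeq2, 20 by limma on log2(TPM + 1), 21 on log2(TPM + 0.1), 19 without the TPM filter, 15 with only the compared groups in the fit and 19 with the replicate block. Centred TPM gave 1 lower. In KO livers the 9 higher became 14 with mouse 04, 25 on both TPM scales, 20 without the TPM filter and 3 with only the compared groups, and the 1 lower became 0 without the TPM filter. In WT eWAT the 3 TPM fits each gave 6 higher in place of 2, and the 10 lower became 5 without the TPM filter and 6 without the count filter. The 1 lower in KO eWAT became 0 under the replicate block.

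In eWAT, GC_KO against GC_WT, the 5 lower became 8 by DESeq2, 3 on both TPM scales, 2 without the TPM filter and 1 with only the compared groups. In WT iBAT the TPM fits gave 28, 28 and 24 higher in place of 6 and 1 lower in each in place of 7, which became 4 without the muscle-rich libraries. In KO iBAT each TPM fit gave 20 higher in place of 7 and 4 lower in place of 19. For GC_KO against GC_WT in iBAT, the 3 lower became 1 with mouse 04, with RLE factors, without the count filter and with only the compared groups, 8 on both TPM scales and 0 without the muscle-rich libraries. For FL_KO against FL_WT in iBAT, the 13 lower became 8 without the TPM filter, 6 without the count filter, and 1 with only the compared groups or without the muscle-rich libraries.

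In WT thymus the 7 higher became 17 on both TPM scales, 18 without the TPM filter and 4 without the count filter, and the 2 lower became 0 in all 3 TPM fits. In KO thymus the 4 higher became 13 on both TPM scales, 14 without the TPM filter, and 2 without the count filter or with the replicate block, and the 3 lower became 0 in all 3 TPM fits. In TpB, MdB, Spl, Kid and Cbr together, the 0 calls in WT mice became 5 by DESeq2, 2 without the count filter, 2 with only the compared groups and 1 with the replicate block, which also gave 1 in KO mice. The single call of GC_KO against GC_WT outside the fats became 0 with mouse 04, in the 3 TPM fits, without the count filter and with only the compared groups. The 3 calls of FL_KO against FL_WT outside iBAT became 5 by DESeq2, and the 0 interactions became 4 by DESeq2 and 3 on centred TPM.

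Of the 66 calls of a lower level over all comparisons of groups, 20 lay above 0 on each of the 3 TPM fits, 14 of them in KO iBAT (0.020 to 0.25 on the log2 scale, with 4 called higher, or 3 without the TPM filter), 4 in WT iBAT and 1 in each genotype in Thy. Among the genes named in full, these were Acadm in Thy (0.084 to 0.088 in KO and 0.043 to 0.045 in WT mice), in KO iBAT Acads (0.045), Decr1 (0.020) and Pex11a (0.062 to 0.063), and in WT iBAT Cpt2 (0.076), Hadha (0.096), Ivd (0.038 to 0.039) and Pex11a (0.043 to 0.044). The TPM scale moved the median gene by 0.31 and 0.43 in iBAT, 0.18 and 0.16 in Thy, 0.15 in KO livers, and 0.19 and 0.10 in TpB.

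Leaving out 1 mouse of a group of 2 to 5 at a time gave 5 to 11 higher (5 without mouse 01) and 1 lower in KO livers, 3 to 5 higher and 0 to 1 lower in KO eWAT, 7 to 8 higher and 17 to 19 lower in KO iBAT, and 2 to 5 higher and 2 to 4 lower in KO thymus. It gave 4 to 12 lower for FL_KO against FL_WT in iBAT and 1 to 4 calls outside it (1 without mouse 02), 1 to 2 for GC_KO against GC_WT outside the fats (2 without GC_KO mouse 02), 0 to 1 in the 5 tissues in KO mice (1 without mouse 11), and 0 there in WT mice and for the interaction. In MdB without 1 FL_KO mouse, the lone mouse is assumed to vary like the other groups. The cause of these changes was not tested. The replicate block moved no other count by over 1.5 times. The block could not be fitted for WT mice in Kid and MdB, which share fewer than 2 numbers.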

Other observations

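Cpt1a in liver, chosen here after its values were seen, was not called after flight but took separate levels among the mice of each group. GC_KO mice 01, 02 and 04 had 570, 464 and 507 CPM and mice 09, 11 and 12 had 259, 247 and 237 CPM. Among FL_KO mice, 01 and 02 had 614 and 623 CPM and mice 09, 11 and 12 had 351, 305 and 313 CPM. In WT livers, mice 03 and 05 stood highest, with 624 and 506 CPM in GC_WT (348 to 451 CPM in the others) and 760 and 723 CPM in FL_WT mice (412 to 517 CPM in the others). The flight mice 01 and 02 are also the ones with the highest Acot1, Acot2, Acot4, Acadm and Vnn1 among FL_KO livers. GC_KO mice 01, 02 and 04 also stood above 09, 11 and 12 for Cpt1a in Spl (134 to 158 and 82.9 to 97.4 CPM). So did they for Acsl1 in eWAT (1686 to 2395 and 777 to 1247 CPM) and Ehhadh in iBAT (67.9 to 88.3 and 25.6 to 37.6 CPM). Other genes were not counted. The KO liver comparison set mice 01 and 02 among 5 flight mice against 01, 02 and 04 among 6 ground mice. The part of this in the results was not tested.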
